A study of Mus musculus with 4 samples.

Results

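The 9 fibroblast growth factor (FGF) genes Fgf18, Fgf5, Fgf7, Fgf10, Fgf22, Fgf13, Fgf1, Fgf2 and Fgf9 were followed in mouse back skin. They were found by gene name among the non-control probes of the array, and every probe with one of these names was taken, which gave 15 probes of 41174, read by 33 spots of 43379 on each array. Of the 15 probes, 12 passed the filter on dim probes, with at least 1 for every gene, and 3 did not (1 each of Fgf13, Fgf2 and Fgf9).

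The study asked which genes depend on Fgf18 in resting skin. The cKO group carried a conditional knockout of Fgf18 in keratin 5-positive epithelial cells on a C57BL/6 background, and the WT group was C57BL/6 without that deletion. Both groups were males aged 42 days, and full-thickness dorsal skin, labelled as telogen (the rest between rounds of hair growth), was taken from 3 mice each. PolyA RNA of the 3 mice was pooled per group, and 2 one-colour arrays were run for each pool. The 2 arrays of a group were thus technical duplicates of 1 pool: every standard deviation, standard error and p-value here measures the spread between duplicate arrays, the tests compare 2 RNA pools, and the spread between mice was not measured. With 2 arrays against 2, an exact permutation test of a single probe cannot give a two-sided p below 0.333, so the tests given are from a limma fit across all probes. The part of Fgf18 that was removed, and the Cre line, are not given in the labels used here, and the dermal cells of the cKO skin keep an intact Fgf18 as the design gives it.

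FGFs are mostly secreted ligands that bind receptor tyrosine kinases, the FGF receptors, together with heparan sulfate, and signal through the ERK kinases. In skin, Fgf18 is known as a product of the inner bulge of the resting follicle that keeps it in telogen, and Fgf5 as the factor that ends anagen, the growth phase. Loss of Fgf5 in mice gives the long-haired angora coat. Fgf7 and Fgf10 are mesenchymal ligands, made in skin chiefly by dermal cells including those of the dermal papilla, and Fgf22, of the same subfamily, is made by hair follicle epithelium. Fgf1 and Fgf2 lack a classical signal peptide. Fgf9 is a secreted ligand known in mouse skin for its part in the new follicles of large wounds. Fgf13 belongs to the intracellular FGF homologous factors, which bind sodium channels and are not secreted.

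Each array probe was a stretch of 60 bases. The last 30 bases (31 to 60, 5′ to 3′ of the transcript strand, lower case) are given for the members whose values the results turn on, because they fix which stretch of each transcript was read. Capitals mark AATAAA, the canonical polyadenylation hexamer, which was searched for on the printed strand. It was found in the whole probe of 4.78% of all probes and in 1 member probe, that of Fgf5, starting at base 50. Coordinates are those of the array files on mm9. Whether a probe lies in a coding exon or an untranslated region is not stated, because no mm9 gene models were used here.
Fgf18, probe A_51_P249957, chr11:33017441-33017470, minus strand: ttccccccaaaggttctgaaagcaaacaaa
Fgf5, probe A_52_P569375, chr5:98706010-98706039, plus strand: ttatattcctaaatgctgcAATAAAgaggc
Fgf7, probe A_51_P465331, chr2:125915177-125915206, plus strand: atggacacacagcggaggggaaatgttcgt
Fgf10, probe A_52_P42269, chr13:119580395-119580424, plus strand: tttcactttgccatttagattactaaagag
Fgf22, probe A_51_P472574, chr10:79219541-79219570, plus strand: gcgcatcgaggagaacggctacaacacata
Fgf22, probe A_52_P230773, chr10:79220839-79220868, plus strand: aggctcttcatgtcctaaacttgaggacag
Fgf13, probe A_52_P154877, chrX:56315765-56315794, minus strand: tcgtgtatcatgttaatctattgtggcttc
Fgf9, probe A_51_P497152, chr14:58728454-58728483, plus strand: cactataaatgctttcatgcggtgggttct
Between the full probes of different members, the longest stretch of identical bases was 9, so the member probes share no long run with each other. The Fgf22 probes start 1298 bases apart on the genome.

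Levels below are log2 of the processed signal minus the log2 of each array's own 75th percentile, which stood at 1403 and 1453 for cKO and at 1271 and 1316 for WT. Over all probes kept, duplicates correlated at r = 0.996 (cKO) and 0.995 (WT), while a cKO and a WT array reached at most 0.969 (across probes, which are not independent replicates). The pools differed in hair follicle genes. All 14 genes of an anagen hair matrix and shaft list were higher in cKO (median log2 change 7.76), with a summed level, in units of the 75th percentile, of 266 and 262 in cKO against 6.16 and 6.74 in WT. Of these, Krt85, Krt86, Krt25 and Shh did not clear background on any WT array. The cKO skin thus carried growth-phase hair transcripts under a telogen label, and their part in the changes of the FGF ligands was not tested. Genes of the basal epithelium, in which Fgf18 was targeted, had a median change of -0.06 with 0 of 5 called, and Krt5 and Krt14 had log2 changes of -0.09 and 0.31. In RNA of whole skin, fewer cells of a type and less RNA per cell cannot be told apart.

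A probe is called higher or lower here at an adjusted p under 0.05 together with a change of at least 1.5-fold. Of all 26063 probes tested, 4.92% were called higher and 4.79% lower in cKO, 9.71% in all. Of the 12 member probes tested, 2 were called higher, that of Fgf5 and 1 of the 2 of Fgf22, and 0 lower. By adjusted p alone, 8 of the 12 passed, 4 higher and 4 lower, against 50.3% of all probes (19.2% higher and 31.1% lower). The arrays of the cKO and WT pools did not overlap for 11 of the 12, all but that of Fgf2, against 79.8% of all probes. Neither share by itself sets the members apart from the probes around them. The median log2 change over all probes was -0.06, its middle 95% ran between -0.80 and 1.09, and 11 of the 12 member changes lay inside that range, all but that of Fgf5.

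**Figure D1:**
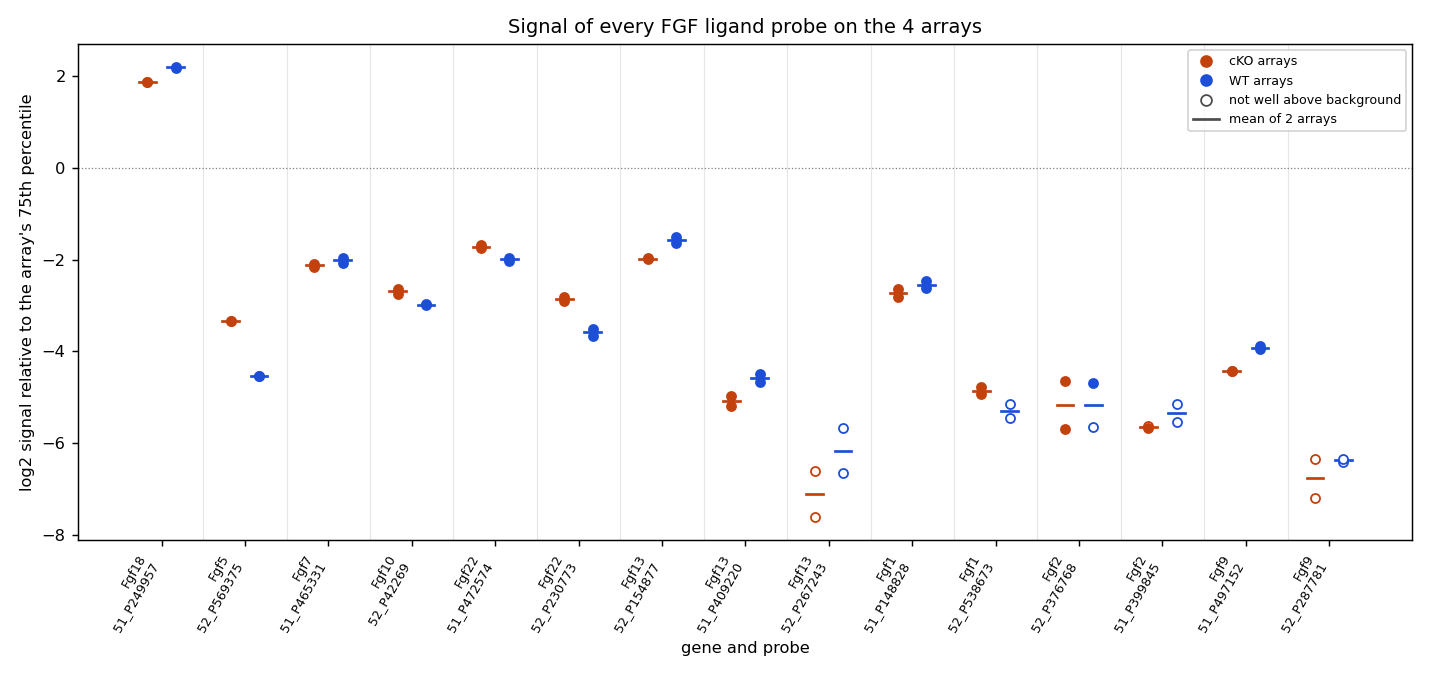
Level of each member probe on each array, as log2 of the processed signal over the array's 75th percentile, with cKO left of WT, open circles for arrays on which the probe was not well above background, and a line at the mean of 2 arrays. The 2 arrays of a pool lie close together for the bright probes, and Fgf18 sits far above every other member on all 4 arrays. The duplicates spread apart for dim probes, most for Fgf2 A_52_P376768 and Fgf13 A_52_P267243, and in cKO also for Fgf9 A_52_P287781.

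Fgf18, the targeted gene, was still read at a high level in cKO skin. Its single probe read 5096 and 5293 in cKO, against 5748 and 6076 in WT (processed signal). On the scaled log2 axis this was 1.86 and 1.86 in cKO and 2.18 and 2.21 in WT, so both cKO arrays lay below both WT arrays, by a gap of 0.31 that exceeds the difference between duplicates. The log2 change was -0.33 (SE 0.027, 95% interval -0.41 to -0.25, adjusted p = 0.0053, limma), a level 1.26-fold lower in cKO, which is under the fold needed for a call. A change of that size or larger was seen in 29.5% of all probes tested. The probe starts 1023 bases into its target transcript. Whether it lies inside the deleted part is not known here, so its level does not check the labels of the cKO arrays.

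Fgf5 had the largest change of the 12 tested probes. Its probe read a signal of 139 and 143 on the cKO arrays, against 55.1 and 56.3 on the WT arrays. The duplicates were nearly equal within each pool (-3.33 and -3.35 in cKO, -4.53 and -4.55 in WT, scaled log2), and the gap between the pools was 1.18. Fgf5 rose 2.30-fold in cKO (log2 change 1.20, SE 0.026, 95% interval 1.12 to 1.28, adjusted p = 0.0011, limma), and 2.80% of all probes changed as much or more. The size differed with another background treatment: with normexp correction and an offset of 50 the log2 change was 0.68 after quantile normalization and 0.60 after 75th percentile scaling, still called both times. The anagen genes moved in the same direction between the pools, and their part in the change of Fgf5 was not tested.

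**Figure D2:**
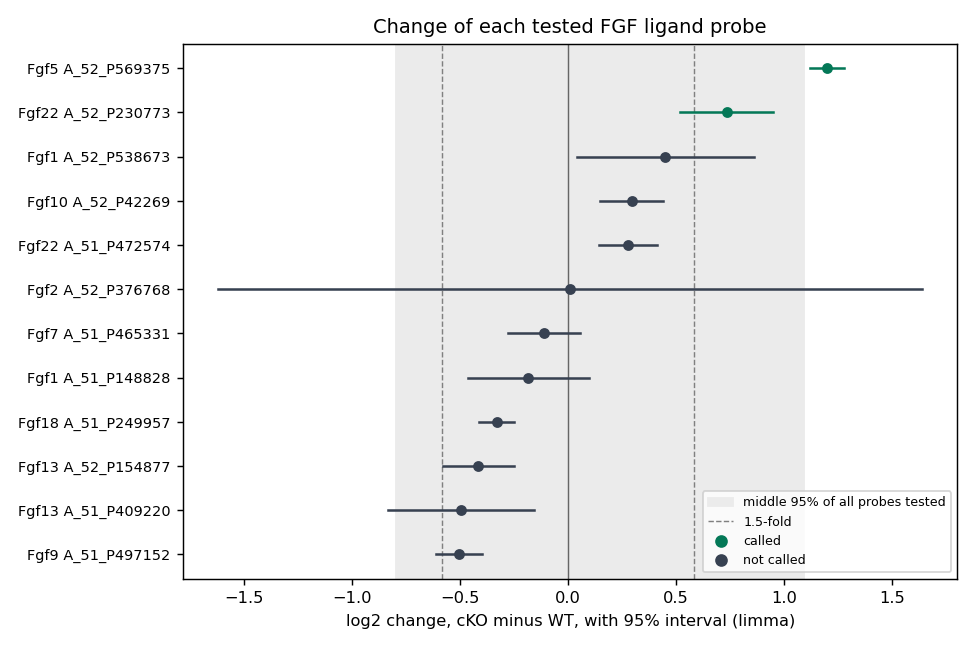
Log2 change (cKO minus WT) of the 12 member probes tested, with 95% intervals from limma over 4 arrays, dashed lines at the 1.5-fold threshold, called probes in green, and a grey band for the middle 95% of all probes tested. Fgf5 and the Fgf22 probe A_52_P230773 lie beyond the line on the higher side, no probe lies beyond the line on the lower side, and the interval of the Fgf2 probe spans -1.62 to 1.64. The point of the Fgf1 probe A_52_P538673 is a fitted value against a WT level below background, not a measured size.

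The mesenchymal ligand Fgf7 did not differ by the test. Its probe read 316 and 338 on the cKO arrays, against 301 and 339 on the WT arrays, so the unscaled values of the pools overlapped. After scaling, the levels were -2.15 and -2.11 in cKO and -2.08 and -1.96 in WT, with a log2 change of -0.11 (SE 0.056, 95% interval -0.28 to 0.06, adjusted p = 0.19, limma). The whole interval lies inside the 1.5-fold threshold, but it covers the spread between duplicate arrays only and not that between mice.

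Fgf10, the other mesenchymal ligand of this subfamily, was read by 10 spots of 1 probe on each array. Its mean signal was 209.8 and 234 on the cKO arrays, against 162 and 165 on the WT arrays, and on the scaled log2 axis -2.74 and -2.63 in cKO against -2.97 and -2.99 in WT. Both cKO arrays were above both WT arrays, and the duplicates differed more in cKO than in WT. The 20 cKO spots ran from -2.80 to -2.46 and the 20 WT spots from -3.17 to -2.81, so every cKO spot was above every WT spot, the nearest by 0.010. Spots of an array are repeat readings of 1 hybridisation and not replicates. The log2 change was 0.30 (SE 0.049, 95% interval 0.15 to 0.44, adjusted p = 0.019, limma), a level 1.23-fold higher in cKO and not called.

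**Figure D3:**
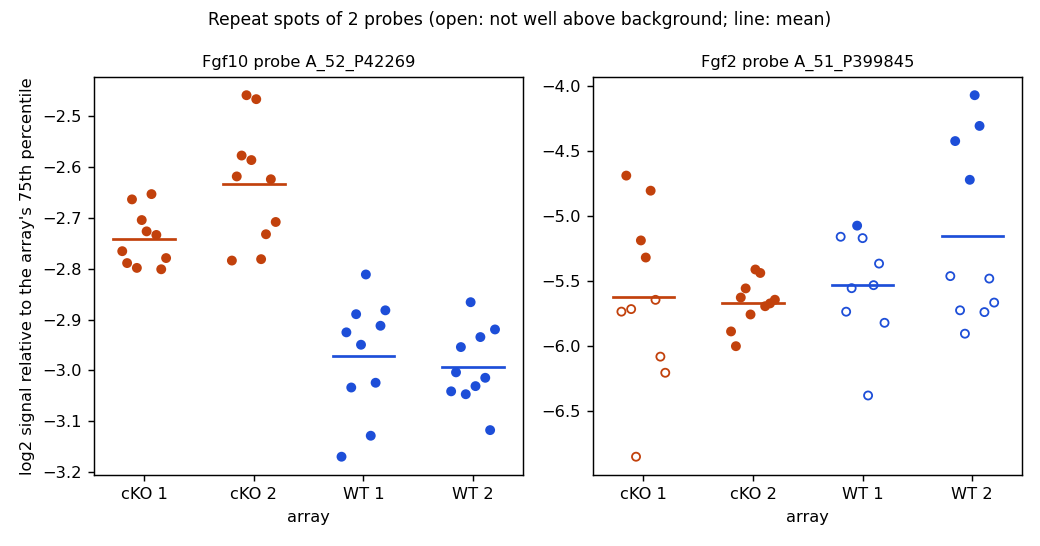
Scaled log2 level of each of the 10 repeat spots of the Fgf10 probe and of the Fgf2 probe A_51_P399845 on each array, with open circles for spots not well above background and a line at the mean. The Fgf10 spots of the cKO arrays all lie above those of the WT arrays, while the Fgf2 spots of the pools overlap over most of their range.

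Fgf22, the epithelial ligand of the subfamily, was higher in cKO on both of its probes, and 1 was called. The brighter probe, A_51_P472574, gave 436 and 432 on the cKO arrays, against 327 and 321 on the WT arrays, with a log2 change of 0.28 (SE 0.045, 95% interval 0.14 to 0.41, adjusted p = 0.018, limma), 1.21-fold. The dimmer probe, A_52_P230773, gave 188 and 207 on the cKO arrays, against 100.3 and 115 on the WT arrays, or -2.90 and -2.81 in cKO and -3.66 and -3.52 in WT on the scaled log2 axis. The pools did not overlap on either probe. The dimmer probe rose 1.66-fold (log2 change 0.73, SE 0.072, 95% interval 0.52 to 0.95, adjusted p = 0.0069, limma), but with normexp background correction its change was 0.50 or 0.45 and the call was lost, with adjusted p = 0.0060 and 0.0055 in limma. The probe of the neighbouring gene Rnf126, which starts 724 bases from the start of this probe on mm9, had a log2 change of 0.03 (adjusted p = 0.48, limma).

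Fgf1, a mitogen that binds all FGF receptors, was read by 2 probes with changes of opposite sign and no call. The brighter probe, A_51_P148828, gave 199 and 232 on the cKO arrays, against 206 and 237 on the WT arrays, values that overlapped before scaling. Its levels were -2.82 and -2.65 in cKO and -2.63 and -2.47 in WT, with a log2 change of -0.18 (SE 0.093, 95% interval -0.46 to 0.10, adjusted p = 0.19, limma). The dimmer probe, A_52_P538673, gave 46.0 and 53.0 on the cKO arrays, against 35.8 and 29.8 on the WT arrays. It did not clear background on any WT array, and its fitted log2 change had a 95% interval from 0.04 to 0.86 (adjusted p = 0.070, limma). With each WT level taken as no lower than the lowest level that cleared background on that array, cKO was 1.16-fold higher. This bound leaves out the spread between duplicates and depends on the background treatment. With normexp background correction the fitted log2 change was 0.14 after quantile normalization and 0.0077 after 75th percentile scaling. Leaving out the first WT array, so that the other stood alone for its pool and was assumed to vary like the cKO arrays, gave adjusted p = 0.041 (limma), with the WT level still below background.

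Fgf2, a ligand stored on heparan sulfate of the extracellular matrix, was at the edge of detection. Probe A_52_P376768 gave 55.7 and 28.2 on the cKO arrays, against 25.1 and 50.6 on the WT arrays. The duplicates lay far apart in both pools, the pools overlapped, and the log2 change of 0.01 had a 95% interval from -1.62 to 1.64 (adjusted p = 0.99, limma), which does not limit a change in either direction. The other probe, A_51_P399845, read by 10 spots, gave 28.4 and 28.5 in cKO and 27.4 and 37.0 in WT and did not pass the filter. Its spots were well above background in 4 and 10 of 10 cases on the cKO arrays and in 2 and 4 of 10 on the WT arrays. Of the 2 on the first WT array, 1 was a flagged spot that was left out of the levels. The second cKO array, which alone had most of its spots above background, also had the lowest detection limit of the 4. The spot levels overlapped, from -6.85 to -4.69 in cKO and from -6.38 to -4.07 in WT. This probe spans 47220 bases of chromosome 3 on mm9, so it crosses at least 1 intron. The gene Nudt6 overlaps Fgf2 in RefSeq annotation of GRCm38.p6, and it was read by 3 probes, none of them called. A_51_P204121, which lies 658 bases from the Fgf2 probe A_52_P376768 on mm9, had a log2 change of 0.11 (adjusted p = 0.72, limma), while A_52_P1067757 and A_52_P257041, which lie 5168 and 4922 bases away, had changes of -0.29 and -0.41 (adjusted p = 0.0083 and 0.035, limma).

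Fgf9 was lower in cKO without reaching the fold threshold. Probe A_51_P497152 gave 65.2 and 67.1 on the cKO arrays, against 81.7 and 88.5 on the WT arrays. The levels were -4.43 and -4.44 in cKO and -3.96 and -3.89 in WT, with a log2 change of -0.51 (SE 0.036, 95% interval -0.61 to -0.40, adjusted p = 0.0042, limma), 1.42-fold lower. Both cKO arrays lay below both WT arrays. With normexp background correction the change was -0.21 or -0.31. The second Fgf9 probe, A_52_P287781, was not well above background on any array (scaled log2 -7.19 and -6.34 in cKO, -6.41 and -6.34 in WT), and it starts 3432 bases into its target against 1005 for the first.

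Fgf13, the intracellular member, had 3 probes, and the 2 that were tested were both lower in cKO without a call. The brightest, A_52_P154877, gave 358 and 366 on the cKO arrays, against 448 and 425 on the WT arrays, and its log2 change was -0.41 (SE 0.054, 95% interval -0.58 to -0.25, adjusted p = 0.012, limma), 1.33-fold lower. Probe A_51_P409220 gave 44.7 and 39.6 on the cKO arrays, against 49.6 and 58.1 on the WT arrays, 1.41-fold lower (adjusted p = 0.038, limma). The pools did not overlap on either probe. For the dimmer of these the change shrank to -0.06 or -0.19 with normexp background correction, while its sign stayed negative. The third probe, A_52_P267243, was not well above background on any array, with 7.16 and 15.0 in cKO and 24.8 and 13.0 in WT.

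The estimated changes of probes of the same gene were not equal. The difference of change between the brightest probe and another was therefore tested in a fit over all 8306 such probe pairs of the array. This comparison was added after the values had been seen. The brighter Fgf22 probe changed less than the dimmer by 0.46 on the log2 scale (difference -0.46, SE 0.11, 95% interval -0.77 to -0.14, adjusted p = 0.086, limma). For Fgf13 the difference was 0.08 (SE 0.14, 95% interval -0.33 to 0.49, adjusted p = 0.73, limma). Neither passed an adjusted p of 0.05, which 10.4% of all pairs did, and differences as large as that of Fgf22 were seen in 13.1% of pairs. For Fgf1 no difference is given, because its dimmer probe has only a bound.

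By probe signal, Fgf18 was the highest of the members on all arrays, 3.58 above the next probe in cKO and 3.76 in WT on the log2 scale. A probe's signal also depends on its sequence, so this is an order of probe signals and not of transcript abundance. In cKO the order after Fgf18 was Fgf22 (A_51_P472574), Fgf13, Fgf7, Fgf10, Fgf1, the second Fgf22 probe, Fgf5 and Fgf9. In WT it was Fgf13, Fgf22 (A_51_P472574), Fgf7, Fgf1, Fgf10, the second Fgf22 probe, Fgf9 and Fgf5. Fgf5 thus stood 8th in cKO, ahead of Fgf9, and 9th in WT, behind it. Neighbours whose arrays overlapped, and whose order is therefore not settled, included Fgf10 with Fgf1 and Fgf1 with the second Fgf22 probe in cKO, and Fgf22 with Fgf7 in WT. In WT, Fgf5 also overlapped with the second Fgf13 probe, which followed it. Among the dim probes lower in the order, 3 further neighbouring pairs overlapped in cKO and 3 in WT, so their order is not settled. Over all 15 probes, no probe moved by more than 2 places.

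**Figure D4:**
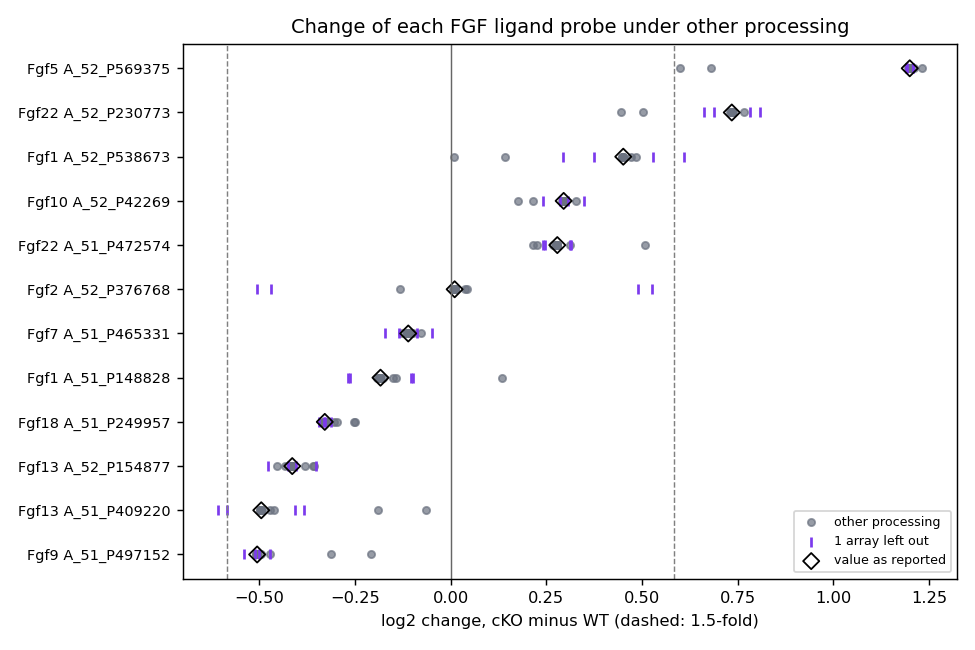
Log2 change (cKO minus WT) of each member probe tested under each processing alternative, with grey points for other processing, ticks for 1 array left out, a diamond for the value as reported and dashed lines at 1.5-fold. Fgf5 stays on the higher side between 0.60 and 1.23, Fgf18 stays between -0.34 and -0.25, and the Fgf2 probe falls on both sides of 0. The values of the Fgf1 probe A_52_P538673 are fitted against a WT level below background.

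The genes whose pattern over the 4 arrays was closest to that of Fgf18 and Fgf5 were listed by the Euclidean distance of centred log2 profiles among 16812 genes that cleared background on every array. Closest to Fgf18 were Zfp106 (0.0092), Msmo1 (0.0094), Ehd1 (0.0099), the gene of probe A_52_P972871 (0.012) and Pdf (0.012), and 1706 genes lay within 0.1. Closest to Fgf5 were Raly (0.021), Spc24 (0.022), Bambi (0.031), Chil1 (0.035) and Marcksl1 (0.040), and 45 genes lay within 0.1. With 4 arrays of 2 pools, a profile is little more than the change between the pools, so a modest change such as that of Fgf18 has many close neighbours.

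The rest of the pathway was described by gene, each by its brightest kept probe, in a separate fit over 17757 genes of which 5.64% were called higher and 4.79% lower, with a median change of -0.05. By gene, 1 of the 9 ligands was called higher (Fgf5) and 0 lower, and their median change was -0.11. Of 13 other FGF ligands, 12 were on the array and only 4 passed the filter, with 0 called (median -0.09). Fgf11, an intracellular homologue of Fgf13, had a log2 change of 0.06. Fgf12, of the same group, had one of -0.20. Fgf6, known from muscle, had -0.83 with adjusted p = 0.19 (limma), from signals of 25.1 and 46.9 in cKO and 42.3 and 71.9 in WT. Of the 4, only Fgf11 cleared background on every array, so the values of Fgf12, Fgf6 and Fgf21, and the list median, rest on dim signals. Fgf21, an endocrine ligand, had 0.02 on the probe that represents it, but its probes were unlike: the other, A_51_P315925, gave 58.4 and 37.8 on the cKO arrays, against 21.1 and 9.70 on the WT arrays, where it did not clear background (adjusted p = 0.084 in the limma fit over probes). The other 8 ligands on the array had no probe that passed the filter.

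Of the receptors and coreceptors, 12 of 14 were tested, 1 was called higher and 1 lower, and the median change was -0.05. Flrt3, a membrane protein that binds FGF receptors, had levels of 0.30 and 0.31 in cKO, against -0.82 and -0.71 in WT. It rose 2.10-fold (log2 change 1.07, adjusted p = 0.0018, limma). Klb, a coreceptor of some endocrine FGFs and a gene of adipose tissue and liver, fell 1.79-fold in cKO (log2 change -0.84, adjusted p = 0.0038, limma), and both cKO arrays lay below both WT arrays. The adipocyte marker list had a median log2 change of -0.12, with 2 of 7 genes called lower. Its summed level, which is weighted to its brightest genes, was 443 and 451 in cKO against 446 and 468 in WT, in units of the 75th percentile. The part of adipocyte genes in the change of Klb was not tested. Of the receptors themselves, Fgfr1, Fgfr2, Fgfr3 and Fgfr4 had log2 changes of 0.18, 0.21, 0.33 and -0.40, with 0 called. Fgfr2, whose epithelial isoform is the receptor of Fgf7, Fgf10 and Fgf22, had levels of 0.41 and 0.43 in cKO and 0.22 and 0.20 in WT. These come from the brightest of its 3 kept probes, and which isoform that probe reads is not known here.

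Genes that rise with ERK signalling, some of which restrain it (Spry, Spred and Dusp genes and Il17rd) and some of which are its transcription factors (Etv1, Etv4 and Etv5), had a median near that of all genes: 12 of the 13 on the array were tested, with a median change of 0.00, 1 called higher and 0 lower. The called gene was Etv4, an ETS transcription factor and FGF target, which had levels of -0.86 and -0.84 in cKO, against -2.67 and -2.60 in WT, and rose 3.44-fold (log2 change 1.78, adjusted p = 0.00061, limma). The phosphatase Dusp6 and the inhibitor Spry1, both of them common readouts of FGF activity, had changes of 0.22 and -0.06. Spred3 did not clear background on any WT array, and its difference is a bound of at least 1.24-fold higher in cKO (adjusted p = 0.063, limma). Etv4 was thus the 1 gene of the 12 to be called.

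**Figure D5:**
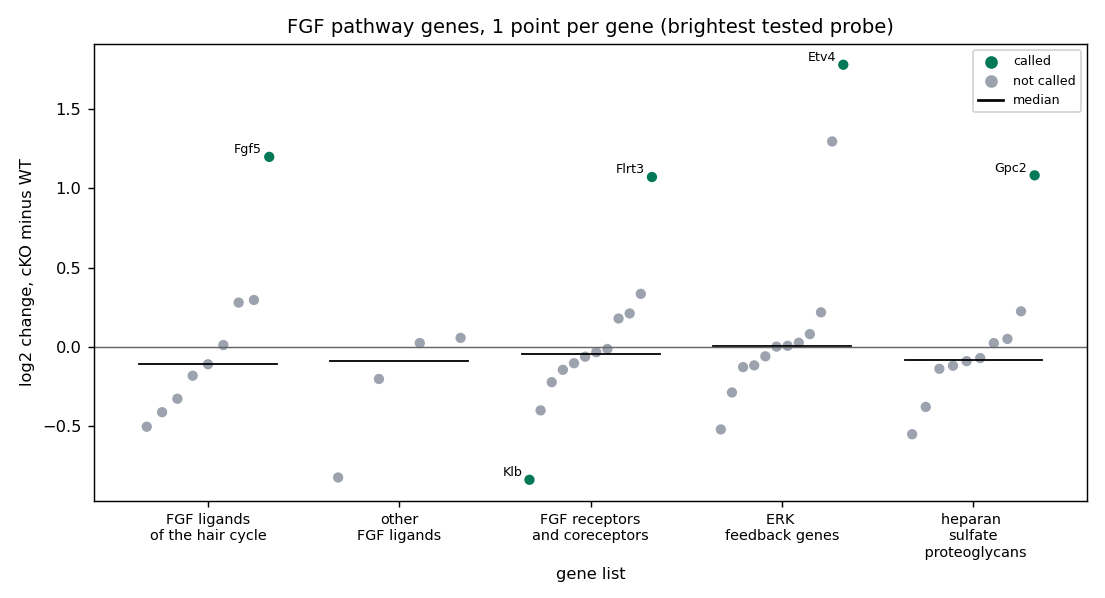
Log2 change (cKO minus WT, 4 arrays, gene level) of each tested gene in the FGF lists, with the ligands of the hair cycle, the other ligands, the receptors and coreceptors, the ERK feedback genes and the heparan sulfate proteoglycans in separate columns, called genes in green and a line at each median. The called genes are Fgf5, Etv4, Flrt3 and Gpc2 on the higher side and Klb on the lower, and the medians of the lists all lie between -0.11 and 0.00. The point at 1.30 among the ERK feedback genes is Spred3, fitted against a WT level below background.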

How the data were processed

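PolyA RNA from 3 mice a group was pooled and 200 ng of it Cy3-labelled, per the labels. Per the file headers, the arrays were quantified with Agilent Feature Extraction 10.7.3.1, which subtracts background within each array; the deposited processed intensity of each spot was the starting value. All 4 arrays lay on 1 slide. The authors' processed values equal this intensity over a single divisor for each array (1342 and 1388 for cKO, 1214 and 1253 for WT), a linear ratio not centred per gene (column medians 0.101 and 0.0983 for cKO, 0.0987 and 0.101 for WT), and served as an alternative; the sources used here do not name the tool behind them. Control spots were left out, flagged spots (126 and 74 for cKO, 120 and 143 for WT) were treated as missing, no spot was saturated, and spots of a probe were averaged. From the deposited intensity, log2 was taken and the log2 of each array's 75th percentile subtracted. A probe was kept if either group had it well above background on both of its arrays; a probe with several spots was so on an array if at least 50% of them were.

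cKO was compared with WT in limma 3.58.1 under R 4.3.3, with lmFit and eBayes, a two-sided test, Benjamini-Hochberg adjustment over all features tested and no covariates. Scripts were tested on simulated data of 26063 probes, in which 67, 67 and 66 were changed 1.5-fold, 2-fold and 4-fold. Of these, 32.8%, 77.6% and 83.3% were called, as were 3 unchanged probes. A 1.5-fold change lies on the fold threshold itself. In the data 50.3% of probes passed by adjusted p alone, so the adjustment was milder there. The simulated rates therefore do not give the share of real changes found. A probe that was not called may still differ. The replicate numbers of the labels were checked for pairing: deviations from the group means correlated at r = -0.020, so the numbers were not taken as pairs. The members and lists were chosen with earlier results of these data known. Named genes are every member probe; in the other lists the called genes, up to 4, or else the 2 brightest; the 5 genes most like Fgf18 and Fgf5; Krt5, Krt14, Actb and Gapdh; other genes were chosen for naming once their values were known. Alternatives tried were normexp (offset 50) with quantile or 75th percentile scaling, quantile normalization, other scalings, the authors' values, other filters, gene-level values, flagged spots kept, trend and robust moderation, the replicate number as a block, and each array left out in turn. Tables were handled with data.table (version 1.17.8) and pandas 2.3.3 in Python 3.11.15; matplotlib 3.10.9 drew the plots.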

Additional observations from a re-analysis of the deposited data

How the results depend on the processing

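Of 196 values of member probes over 17 alternatives, 189 kept their direction and their side of the threshold. Fgf5 was called in all 17 (log2 change 0.60 to 1.23) and Fgf18 in none (-0.34 to -0.25, adjusted p 6.32e-05 to 0.046, limma). The Fgf22 probe A_52_P230773 lost its call with normexp (0.50 with quantile normalization, 0.45 with 75th percentile scaling), and the Fgf1 probe A_52_P538673, below background in WT, passed the threshold without the first WT array. Directions turned for the Fgf2 probe A_52_P376768 (-0.13 with normexp and 75th percentile scaling, and -0.51 to 0.53 leaving out each array). The Fgf13 probe pair turned as well (-0.30 and -0.17 with normexp, -0.070 to 0.23 leaving out each array). The cause of these turns was not tested. Fgf1 turned as the mean of its 2 probes (0.13). That mean takes in the dimmer probe, which was below background in WT and had a fitted change of opposite sign. Member probes called higher numbered 1 with either normexp setting and with either gene-level unit; leaving out each array gave 2 to 3. Over all probes, the counts called lower were 654 with normexp and quantile normalization and 812 with normexp and 75th percentile scaling, which also gave 794 called higher; leaving out each array gave 1136 to 1311 higher and 1122 to 1381 lower. With the replicate number as a replicate block, 1247 were called higher and 1198 lower, with the members' calls as before.

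List medians moved for the hair cycle ligands to 0.010 (mean of probes; -0.26 to -0.050 leaving out each array), for other ligands (-0.35 to -0.057 leaving out each array), for receptors to -0.016 (scaling on spots well above background on all arrays) and -0.084 (no filter; -0.075 to -0.026 leaving out each array), for ERK feedback genes to -0.14 (mean of probes), and for heparan sulfate proteoglycans to 0.014 (normexp and quantile normalization) and -0.017 (quantile normalization). Calls within lists changed for ERK feedback genes (2 higher with trend and robust moderation and with the block, 1 lower without the first cKO array) and for other ligands (1 lower with the block). Signals near background, as for both Fgf2 probes, the dimmer Fgf1 probe and the untested Fgf9 and Fgf13 probes, limit what the duplicates can show.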

Other observations

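Heparan sulfate proteoglycans, which hold FGFs at the cell surface and in the matrix, were measured for 10 of 11 genes, with a median log2 change of -0.08, 1 called higher and 0 lower. Gpc2, a glypican, had levels of -2.29 and -2.32 on the cKO arrays, against -3.34 and -3.43 on the WT arrays, and rose 2.12-fold in cKO (log2 change 1.08, adjusted p = 0.0015, limma). Perlecan (Hspg2), a basement membrane proteoglycan, Gpc1 and Sdc2 had log2 changes of -0.09, -0.38 and -0.55 without a call. Sdc1, Sdc3 and Gpc4 had changes of 0.22, 0.05 and 0.02, and Sdc4, Gpc3 and Gpc6 of -0.14, -0.12 and -0.07, also without a call.

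Marker lists of other skin components are given by their counts, with no test of a list, beside 5.64% of all genes called higher and 4.79% called lower. Skeletal muscle genes had a summed level, in units of the 75th percentile, of 841 and 841 on the cKO arrays, against 1144 and 1200 on the WT arrays, with 2 of 8 called lower. Dermal fibroblast genes summed to 769.7 and 771 in cKO, against 835 and 915 in WT, with Lum the 1 of 7 called lower. Among bulge genes 1 of 7, Lhx2, was called higher. Of 6 dermal papilla genes tested, Nog was called higher and Crabp1 lower, and Sox2 and Rspo3 were not tested. Of the other lists, 2 of 5 nerve genes and 1 of 4 endothelial genes were called lower, and 0 of 4 macrophage genes were called. Gapdh and Actb, common reference genes, had log2 changes of -0.50 and -0.16. The part of these components in the changes of the ligands was not tested.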
